A study of Mus musculus with 15 samples.

Results

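The genes described here are the proteasome subunits of the mouse, taken as the protein-coding genes of the GENCODE M21 annotation whose symbols begin with Psma, Psmb, Psmc or Psmd followed by a number. The rule found 40 genes among the 34554 genes and added sequences of the files. Of these, 7 encode the α subunits and 7 the constitutive β subunits of the 20S core, 3 the catalytic subunits of the immunoproteasome, and 2 forms known from testis (Psma8) and thymus (Psmb11). The 19S cap is represented by 6 ATPases and 3 other subunits of its base and by 8 subunits of its lid. A further 3, Psmd5, Psmd9 and Psmd10, encode chaperones that help assemble the base, and Psmc3ip matches the symbol pattern but encodes a partner of meiotic recombinases and not a proteasome subunit. The expression filter kept 39 of the 40 for testing. Psma8, with 3 estimated counts in all 15 libraries together, did not pass.

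The proteasome is the barrel-shaped protease that degrades proteins tagged with ubiquitin. Its 20S core is a stack of rings in which α subunits guard the gate and 3 of the β subunits, encoded by Psmb5, Psmb6 and Psmb7, carry the active sites. The 19S cap binds the ubiquitin chain, removes it, and unfolds the substrate with a ring of ATPases. Interferon replaces the catalytic subunits with Psmb8, Psmb9 and Psmb10, which form the immunoproteasome and change the peptides made for antigen presentation. The subunit genes are known to be induced together by the transcription factor NRF1 (Nfe2l1) when proteasome activity is short.

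The study switched on synthesis of the glycan CA19-9, a blood marker of pancreatic disease that mice do not make, in organoids of normal mouse pancreatic duct. The inducible group consisted of 3 lines (A217, A220 and A225) that are CA19-9 inducible with doxycycline, and the negative group of 2 lines (A218 and A223) described as genetic negatives that miss a required allele. Doxycycline was given at 1 µg/ml, and each line was sequenced once untreated (0 h), once at 4 h and once at 24 h of treatment, which makes 15 libraries. Both genotypes received the drug, all cultures were harvested together, and all had fresh medium 24 h before harvest, so an untreated culture stands only at 0 h. The sequences of rtTA3, the doxycycline-dependent activator, and of the red fluorescent protein mKate2 were present in libraries of both genotypes. How many mice gave rise to the lines, and which promoter drives the activator, is not stated in the labels. The main test leaves the line out of the fit and treats the 15 libraries as independent, though each line gave libraries at every time. Its p-values cover the spread among libraries of a group, in which differences between lines, cultures and libraries are mixed. Whether this includes a spread between mice is not known. Fits with the line as a replicate block set aside the level of each line, and their p-values cover the spread left within lines.

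Libraries held 47915632 to 59411540 estimated counts. The 10 markers of duct cells were all tested and summed to 9850 to 16900 CPM (counts scaled to a common library size with TMM factors) in a library. Of 7 fibroblast markers 3 were tested, with sums of 0.265 to 4.29 CPM, and of 7 immune markers 3, with sums of 1.36 to 2.89 CPM and 2 markers at 0 in every library. Endothelial markers summed to 3.43 to 6.9 CPM (2 of 3 tested), acinar markers to 0.823 to 1.83 CPM (1 of 5 tested, 2 at 0) and islet markers to no more than 0.23 CPM (0 of 5 tested, 3 at 0). In such bulk samples fewer cells of a type and less RNA per cell cannot be told apart.

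Transcripts of the constitutive proteasome were abundant and varied little. Levels between genes are given per length, as TPM (counts divided by transcript length and scaled to a common total), averaged over the 15 libraries. The α subunits ranged from 177 TPM for Psma2 to 407 TPM for Psma7, and the constitutive β subunits from 234 TPM for Psmb2 to 418 TPM for Psmb6. The ATPases, which unfold the substrate, ranged from 130 TPM (Psmc2) to 286 TPM (Psmc3). The remaining base subunits stood at 167 TPM (Psmd1), 202 TPM (Psmd4, a ubiquitin receptor) and 274 TPM (Psmd2). The lid, which carries the deubiquitinase Psmd14 at 186 TPM, ranged from 77.8 TPM for Psmd11 to 278 TPM for Psmd8. Every α and constitutive β subunit in these ranges thus had a mean level above that of the lid subunit Psmd6, at 163 TPM. The lid subunits Psmd8, Psmd13 (196 TPM) and Psmd14 in turn lay above Psma2.

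The base chaperones were lower, with mean levels of 77.8 TPM for Psmd5, 44.0 TPM for Psmd10 and 38.8 TPM for Psmd9. Psmc3ip stood at 21.1 TPM. Over all 15 libraries, the coefficient of variation of the TPM level was 2.37% for Psmb1 and 9.16% for Psmc6, the lowest and the highest among the constitutive α, β and 19S subunits. Neighbours in the order such as Psmb1 (364 to 394 TPM over the libraries) and Psma3 (343 to 425 TPM) overlapped, whereas the ranges of Psma7 (376 to 439 TPM) and Psma2 (161 to 194 TPM) did not. Estimated counts of alternative transcripts were added into each gene, and 36.1% of those of Psma3 came from a transcript with a retained intron.

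**Figure D1:**
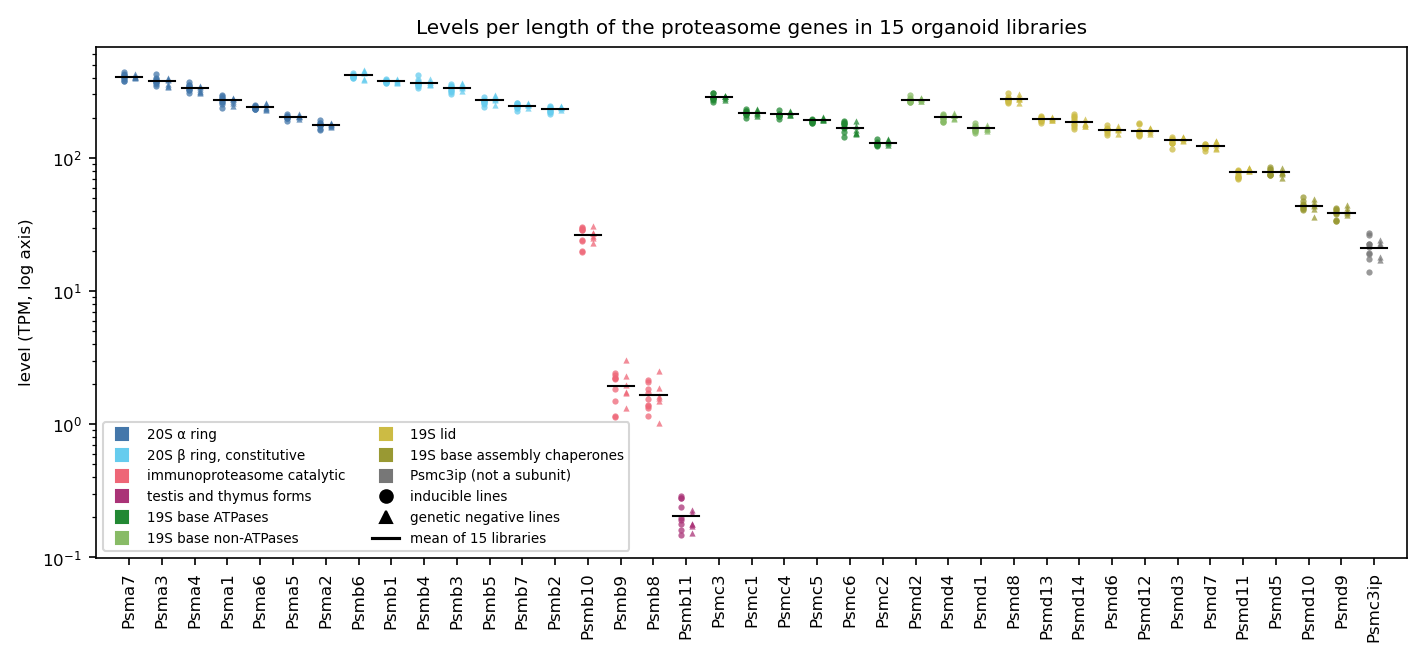
Level of 39 proteasome genes on a log axis of TPM, 1 point per library, circles for inducible lines and triangles for genetic negative lines, with a bar at the mean of the 15 libraries. The α, constitutive β and 19S subunits sit between 77.8 and 418 TPM on average, while Psmb8 (1.65 TPM), Psmb9 (1.94 TPM) and Psmb11 (0.206 TPM) sit far below.

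Summed by class, the levels hardly moved with doxycycline. The constitutive β ring summed to 2262 ± 32.1 TPM at 0 h, 2240 ± 29.3 TPM at 4 h and 2181 ± 43.6 TPM at 24 h in inducible lines (SD, n = 3), and to 2256 ± 77.1, 2266 ± 137 and 2330 ± 62.9 TPM in negative lines (SD, n = 2). The α ring stood at 2001 ± 66.5, 2045 ± 81.0 and 2001 ± 116 TPM in inducible lines and at 2018 ± 73.5, 2012 ± 67.2 and 1961 ± 87.7 TPM in negative lines. The mean log2 difference of 24 h from 0 h within a line was -0.02 ± 0.04 for the α ring, -0.01 ± 0.07 for the β ring and -0.04 ± 0.04 for the ATPases (SD, n = 5 lines). The largest of these class differences in TPM was that of the base chaperones, 0.07 ± 0.05, which was positive in 5 of 5 lines. In CPM theirs was 0.099 ± 0.051, also positive in 5 lines, and that of the immunoproteasome was larger, 0.128 ± 0.165, positive in 4 lines. The lid was higher at 24 h in 5 lines in CPM but in 1 line in TPM.

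After 24 h of doxycycline 3 members were called higher and 1 lower across both genotypes. Among these called members Psmd10, the base chaperone also known as gankyrin, rose most, followed by the lid subunit Psmd8 and the β subunit Psmb1, while Psmc3ip fell. For this comparison the changes of the inducible and of the negative lines were averaged. The quasi-likelihood test of edgeR with Benjamini-Hochberg adjustment over all 16462 tested features called these 4 of 39 members, against a background of 18.7% of all features called. The median log2 change was 0.02 over the 39 members and 0 over all features. The members' share was thus below that of all features. The summed duct markers were also higher at 24 h, with 14200 to 15800 CPM at 24 h against 10600 to 12900 CPM at 0 h in inducible lines and 16000 to 16900 CPM against 11600 to 11800 CPM in negative lines, and their part in the changes was not tested.

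Psmd10 (chromosome X, 140948429 to 140956728, GRCm38) stood at 36.9, 36.1 and 37.9 CPM at 0 h, at 37.4, 36.6 and 38.0 CPM at 4 h and at 40.7, 42.6 and 45.6 CPM at 24 h in inducible lines A217, A220 and A225. In negative lines A218 and A223 it stood at 35.6 and 31.1 CPM at 0 h, 37.8 and 37.7 CPM at 4 h and 44.1 and 42.2 CPM at 24 h. In CPM all 5 libraries at 24 h lay above all 10 others, and the A223 library at 0 h was the lowest. In TPM the A217 library at 24 h (44.5 TPM) lay below the A225 library at 4 h (45.1 TPM). The log2 change at 24 h was 0.29 ± 0.05 (SE), a 1.23-fold rise with a 95% interval of 1.14 to 1.32 (edgeR adjusted p = 0.00231), and leaving out 1 library at a time gave log2 changes of 0.24 to 0.34, all called.

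Psmd8 (chromosome 7, 29174188 to 29180701), a subunit of the lid, stood at 220.1, 226.7 and 224.96 CPM at 0 h, at 219.9, 230.5 and 234.2 CPM at 4 h and at 239.8, 241.9 and 264.6 CPM at 24 h in inducible lines A217, A220 and A225. In negative lines A218 and A223 it stood at 228.9 and 229.8 CPM at 0 h, 233.1 and 216.8 CPM at 4 h and 252.2 and 261 CPM at 24 h. Again in CPM every library at 24 h was above every library at 0 h and 4 h. In TPM the A217 library at 24 h (272.2 TPM) lay below the A218 and A223 libraries at 0 h (276.7 and 277.4 TPM). The log2 change was 0.16 ± 0.04, or 1.11-fold, with a 95% interval of 0.07 to 0.24 on the log2 scale (edgeR adjusted p = 0.0155). The call was lost without the A218 library at 0 h (log2 change 0.15, adjusted p = 0.0728) and without the A223 library at 0 h (0.15, 0.0624) or at 24 h (0.14, 0.0791).

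Psmb1 (chromosome 17, 15475021 to 15499751), a β subunit without an active site, stood at 224.6, 226.4 and 220.9 CPM at 0 h, at 232.0, 225.5 and 220.6 CPM at 4 h and at 242.25, 234.18 and 244.05 CPM at 24 h in inducible lines A217, A220 and A225. In negative lines it stood at 223.95 and 219.96 CPM at 0 h, 228.7 and 225.2 CPM at 4 h and 246.1 and 232.6 CPM at 24 h. In CPM the groups at 24 h and 0 h did not overlap. In TPM the A223 library at 24 h (375.2 TPM) lay just below the A218 library at 0 h (375.7 TPM). The log2 change of Psmb1, 0.10 ± 0.03 (1.08-fold, 95% interval 1.03 to 1.13), was called with an edgeR adjusted p of 0.0356. The call was lost in 9 of 10 fits without 1 library, with adjusted p up to 0.182, the exception being the A217 library at 24 h. It was also lost under median-of-ratios scaling (adjusted p = 0.0527), without an expression filter (0.132), with a filter of 1 CPM in 3 libraries (0.0646), with an effective length offset (0.0674) and with only the groups compared in the fit (0.0962).

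Psmc3ip (chromosome 11, 101091823 to 101095436), known to help the recombinases of meiosis, stood at 17.6, 15.6 and 17.4 CPM at 0 h, at 14.9, 13.1 and 13.8 CPM at 4 h and at 13.6, 9.58 and 11.5 CPM at 24 h in inducible lines A217, A220 and A225. In negative lines A218 and A223 it stood at 14.98 and 15.02 CPM at 0 h, 14.91 and 16.17 CPM at 4 h and 11.99 and 11.91 CPM at 24 h. Every 24 h library was below every 0 h library. The log2 change of -0.43 ± 0.09 (0.740-fold, 95% interval 0.650 to 0.842) had an edgeR adjusted p of 0.00526 and was called in all 10 fits without 1 library. Its gene overlaps Mlx on the opposite strand. Whether counting used strand is not given, so the share of Mlx reads in its counts is not known.

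**Figure D2:**
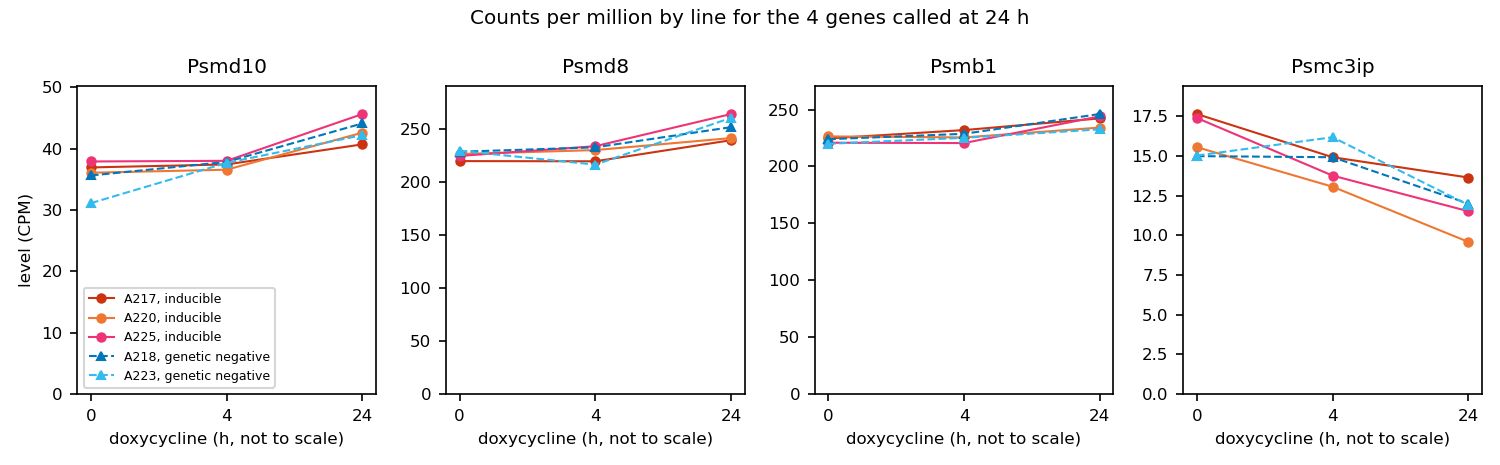
Level in CPM of Psmd10, Psmd8, Psmb1 and Psmc3ip in each of the 5 lines after 0, 4 and 24 h of doxycycline (axis not to scale), with solid lines for inducible and dashed lines for genetic negative organoids. In all 5 lines the first 3 genes are higher and Psmc3ip is lower at 24 h than at 0 h.

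Promoters are shown for the called members with an entry and for 3 catalytic β subunits (Psmb5, Psmb6 and Psmb8), since the results turn on these genes. RefSeq's table for GRCm38.p6 held 35 windows, from 250 bases before to 50 after a gene's start, for 33 of the 40 members. Psma8, Psmb1, Psmb2, Psmb7, Psmc3, Psmd3 and Psmd7 had none. The windows were searched on both strands for 5 motifs. The cores of the antioxidant response element, bound by NRF1 and NRF2, were written TGACNNNGC and TGAGNNNGC, the site of NF-Y CCAAT, the site of activated STAT factors TTCNNNGAA, and an interferon response core GAAANNGAA. The 250 bases before the start are given 5′ to 3′ on the gene's strand, with matches to any of the motifs in capitals. The starts are those of RefSeq. For Psmb8 the printed bases lie inside the gene as annotated by GENCODE M21, which begins at 34197721 on the plus strand.
Psmd10 (chrX:140956712-140956961, minus strand): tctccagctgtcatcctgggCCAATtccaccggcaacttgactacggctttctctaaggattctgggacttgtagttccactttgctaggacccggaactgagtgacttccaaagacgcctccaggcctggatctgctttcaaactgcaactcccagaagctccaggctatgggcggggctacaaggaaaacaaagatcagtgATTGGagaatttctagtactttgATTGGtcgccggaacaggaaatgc
Psmd8 (chr7:29180674-29180923, minus strand): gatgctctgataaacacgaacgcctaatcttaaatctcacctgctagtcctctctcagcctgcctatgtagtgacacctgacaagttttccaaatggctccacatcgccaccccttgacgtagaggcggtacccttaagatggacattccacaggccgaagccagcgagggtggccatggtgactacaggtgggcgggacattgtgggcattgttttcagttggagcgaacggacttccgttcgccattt
Psmc3ip (chr11:101095436-101095685, minus strand): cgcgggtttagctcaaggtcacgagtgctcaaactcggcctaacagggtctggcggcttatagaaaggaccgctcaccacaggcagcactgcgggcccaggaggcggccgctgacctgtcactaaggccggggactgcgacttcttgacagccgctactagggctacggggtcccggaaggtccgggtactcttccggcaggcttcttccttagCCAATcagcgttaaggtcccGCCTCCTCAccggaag
Psmb5 (chr14:54617996-54618245, minus strand): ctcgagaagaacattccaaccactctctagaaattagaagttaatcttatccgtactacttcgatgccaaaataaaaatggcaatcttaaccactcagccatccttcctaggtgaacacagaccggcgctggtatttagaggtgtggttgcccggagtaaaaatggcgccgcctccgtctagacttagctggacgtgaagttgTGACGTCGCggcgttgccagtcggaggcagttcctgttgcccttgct
Psmb6 (chr11:70525107-70525356, plus strand): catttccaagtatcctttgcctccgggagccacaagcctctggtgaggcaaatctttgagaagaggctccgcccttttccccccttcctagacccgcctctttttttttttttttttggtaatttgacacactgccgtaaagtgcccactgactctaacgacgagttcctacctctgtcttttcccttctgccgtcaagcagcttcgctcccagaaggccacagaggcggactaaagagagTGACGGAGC
Psmb8 (chr17:34197945-34198194, plus strand): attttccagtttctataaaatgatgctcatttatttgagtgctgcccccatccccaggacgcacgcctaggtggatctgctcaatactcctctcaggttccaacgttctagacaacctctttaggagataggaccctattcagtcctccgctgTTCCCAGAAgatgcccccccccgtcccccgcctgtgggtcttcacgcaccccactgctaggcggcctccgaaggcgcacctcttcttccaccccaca

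In these stretches Psmd10 had 3 matches to CCAAT, 2 of them on the reverse strand, Psmc3ip 1 to CCAAT and 1 to TGAGNNNGC on the reverse strand, Psmb5 and Psmb6 1 each to TGACNNNGC, and Psmb8 1 to TTCNNNGAA. None of the 5 was in that of Psmd8. Over the 35 windows of members, an antioxidant core of either form was in 16 windows (Psma6 has 2), or 45.7%, against 27.8% of 32851 windows of all genes. The TGAG form was in 37.1% of the members' windows against 17.6%, and the TGAC form in 14.3% against 12.4%. CCAAT was in 40% against 37.4%, the STAT site in 5.71% against 8.3% and the interferon core in 14.3% against 8.56%. The 3 immunoproteasome genes had 0 windows with an antioxidant core, 1 with CCAAT (Psmb9) and 1 with the STAT site (Psmb8). These are counts of letters and not of bound sites.

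Most of the other 35 tested members stayed close to their levels at 0 h. Leaving out Psmc3ip, 33 of 38 members had a 95% interval of the 24 h change within 0.3 log2 units, or 1.23-fold, of no change. The 5 exceptions were Psmd10 and the low or variable genes Psmb8, Psmb9, Psmb10 and Psmb11. Among these uncalled genes Psmb9 stood at 0.31 ± 0.19 (edgeR adjusted p = 0.288) and Psmb11 at -0.23 ± 0.23 (0.536), so a change was not resolved. The share of all features with such intervals is not given, here or below. Of the α ring, Psma4 had the largest 24 h change at 0.07 ± 0.06 (edgeR adjusted p = 0.396), and the most abundant, Psma7, stood at -0.00 ± 0.04 (0.98). Among the ATPases Psmc6 had the largest, 0.09 ± 0.08 (edgeR adjusted p = 0.525), and the most abundant, Psmc3, stood at -0.03 ± 0.04 (0.567). Among the other base subunits the most abundant, Psmd2, also had the largest change, 0.03 ± 0.04 (edgeR adjusted p = 0.619). The deubiquitinase Psmd14 stood at 0.06 ± 0.06 (0.467) and the chaperones Psmd5 and Psmd9 at 0.08 ± 0.04 (0.199) and 0.00 ± 0.05 (0.998). By direction alone, 4 members were higher in all 5 lines (Psma2, Psmb1, Psmd8 and Psmd10), against 21.8% of all features. The 2 that were lower in all 5 lines (Psma1 and Psmc3ip) compare with 18.1% of all features. In TPM 3 were higher in all 5 lines (Psmb1, Psmd8 and Psmd10), against 13.8% of all features, and 7 were lower (Psma1, Psma5, Psmb7, Psmc5, Psmd3, Psmd6 and Psmc3ip), against 21.3%.

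**Figure D3:**
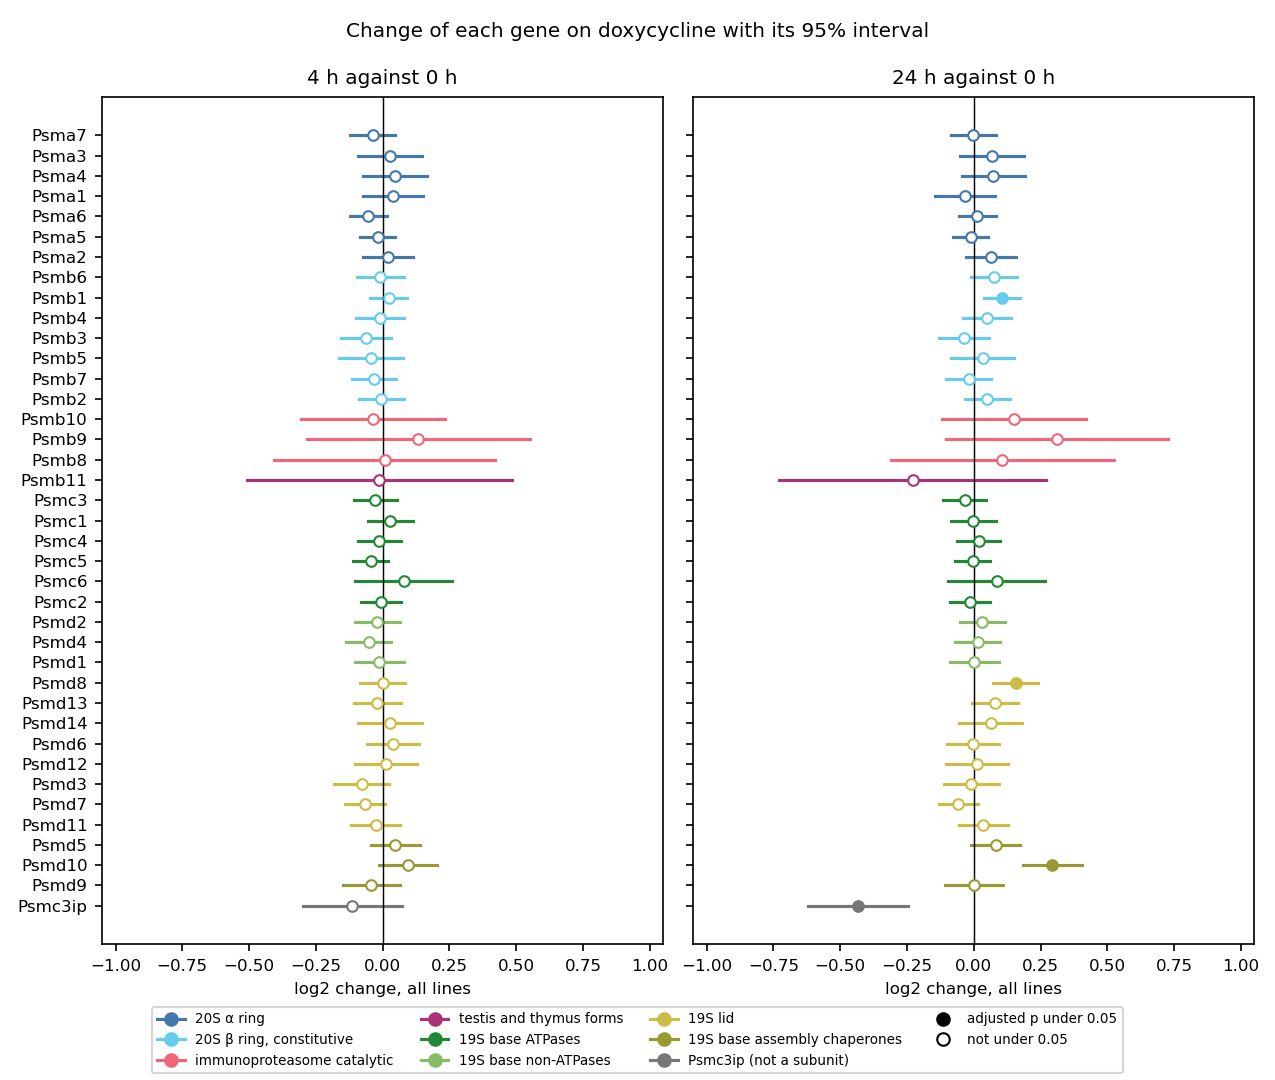
Log2 change of 39 genes across all lines at 4 h (left) and 24 h (right) against 0 h, with 95% intervals and filled points where the edgeR adjusted p is under 0.05. No point is filled at 4 h, and Psmb1, Psmd8, Psmd10 and Psmc3ip are filled at 24 h.

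With the line as a replicate block, which compares each line with itself, the 24 h comparison across genotypes called 5 members against 36.1% of all features. The addition was Psmb6, the constitutive catalytic subunit with caspase-like activity, at a log2 change of 0.08 ± 0.03 (edgeR adjusted p = 0.0409 in the blocked fit). With the line as a random block in limma-voom its adjusted p was 0.055. Its change in the blocked fit was -0.04 in inducible lines and 0.19 in negative lines.

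Within the inducible lines alone, 24 h of doxycycline called 1 member, Psmc3ip, with a log2 change of -0.54 ± 0.11 (edgeR adjusted p = 0.016), against 4.93% of all features. The call was lost without the A217 (adjusted p = 0.0709) or A225 (0.0546) library at 0 h and without the A220 (0.0562) or A225 (0.063) library at 24 h. Without the A217 library at 24 h, 3 members were called. With the line as a replicate block 4 members passed, against 24.2% of all features. These were Psmd10 at 0.22 ± 0.05 (edgeR adjusted p = 0.00584), Psmd8 at 0.15 ± 0.04 (0.0131), Psmb1 at 0.10 ± 0.03 (0.0473) and Psmc3ip at -0.55 ± 0.07 (0.00015). DESeq2 called 3 and limma-voom 4, and the shares of all features called by these tools are not given here.

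Within the negative lines, the 24 h comparison called 1 member, Psmd10, with a log2 change of 0.37 ± 0.08 (edgeR adjusted p = 0.0228), against 3.8% of all features. No member was called without the A218 library at 0 h (Psmd10 adjusted p = 0.0682) or 24 h (0.164), nor without the A223 library at 0 h (0.235) or 24 h (0.123). With the replicate block 4 members passed, against 22.5% of all features. They were Psmd10 at 0.37 ± 0.06 (edgeR adjusted p = 0.000768), Psmd8 at 0.16 ± 0.05 (0.0276), Psmb6 at 0.19 ± 0.04 (0.00495) and Psmc3ip at -0.33 ± 0.09 (0.016). These comparisons share libraries with the one across genotypes above.

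After 4 h no member was called by edgeR in inducible lines (background 0.298% of all features), in negative lines (0.121%) or across both (0.911%), nor by DESeq2 or limma-voom. At an unadjusted p under 0.05 there were 2 members in inducible lines, Psmd4 (log2 change -0.12 ± 0.05) and Psmc3ip (-0.28 ± 0.11). In negative lines there were 2, Psma6 (-0.12 ± 0.05) and Psmd10 (0.18 ± 0.08), and across both genotypes 0. The backgrounds above are for the adjusted p, and the share of all features at the unadjusted threshold is not given here. With the replicate block 1 member, Psmc3ip, passed in inducible lines at -0.28 ± 0.07 (edgeR adjusted p = 0.0495), against 3.05% of all features. Across both genotypes 34 of 38 members without Psmc3ip had a 95% interval of the 4 h change within 0.3 log2 units of no change.

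No member responded differently in the inducible lines than in the negative lines by an adjusted p. For the difference of the 24 h responses edgeR called 0 of 39 members by the adjusted p, against 0.0121% of all features. DESeq2 and limma-voom also called 0. At an unadjusted p under 0.05 there were 4 members, and the share of all features at that threshold is not given here. The 4 were the catalytic subunit Psmb6 at -0.23 ± 0.08, the ubiquitin receptor Psmd4 at -0.23 ± 0.08, the immunoproteasome subunit Psmb8 at -0.99 ± 0.39 and the α subunit Psma6 at 0.15 ± 0.06, each with an edgeR adjusted p of 1. For the difference of the 4 h responses 0 members were called (0.0121% of all features), 0 at an unadjusted p under 0.05, and 0 by DESeq2 or limma-voom. The 95% intervals of the 24 h difference lay within 0.3 log2 units for 23 of 38 members, fewer than for the changes themselves, and Psmb3, Psmb4, Psmb5, Psmb6 and Psmd4 were among those outside. Within the wider bound of 0.5 log2 units, or 1.41-fold, lay 34 of 38, and the 4 outside were Psmb8, Psmb9, Psmb10 and Psmb11.

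In the β ring the direction of the 24 h change differed between lines. In inducible lines 2 of the 7 constitutive β subunits had a positive log2 change, with a median of -0.04, and in negative lines 7 of 7, with a median of 0.11. Line by line, A217 had 4 of 7 β subunits higher, A220 1 and A225 2 among the inducible lines, and A218 had 7 and A223 6 among the negative lines. Of 16462 features 8430, 8363 and 8345 were higher in A217, A220 and A225, and 8344 and 8561 in A218 and A223. Such differences between lines were not confined to the β ring. Of all 39 members 22, 12 and 23 were higher in the inducible lines, in the same order, and 33 and 26 in the negative lines. Of the 6 ATPases 3, 1 and 4 were higher, and 6 and 4. The ring as a whole was not tested for a difference between genotypes. The medians over all features were 0.00 in inducible lines and 0.01 in negative lines. Among all members, in CPM, 6 were lower in all 3 inducible lines and higher in both negative lines (Psma7, Psmb3, Psmb6, Psmb8, Psmc3 and Psmd9), 15.4% of the 39 against 2.16% of all features. The opposite split held 1 member, Psma6, against 1.9% of all features. In TPM the first split held 2 members, Psmb6 and Psmd4, against 1.85% of all features, and the opposite one again Psma6, against 2.65%, so that of the 6 named above Psmb6 alone split on both scales. None of these differences passed the adjusted test, and in Psmc3 the changes of A217 and A223 were within 0.001 log2 units of 0.

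Psmb6 (chromosome 11, 70525367 to 70527858), whose promoter is printed above, had the clearest such values. It stood at 181, 188 and 177 CPM at 0 h, 177, 176 and 172 CPM at 4 h and 181, 176 and 174 CPM at 24 h in inducible lines A217, A220 and A225. In negative lines A218 and A223 it stood at 182 and 165 CPM at 0 h, 187 and 169 CPM at 4 h and 203 and 193 CPM at 24 h. Both negative libraries at 24 h lay above all inducible libraries, while at 0 h the 2 genotypes overlapped. With the replicate block the difference of responses had an unadjusted p of 0.000778 and an edgeR adjusted p of 0.469.

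**Figure D4:**
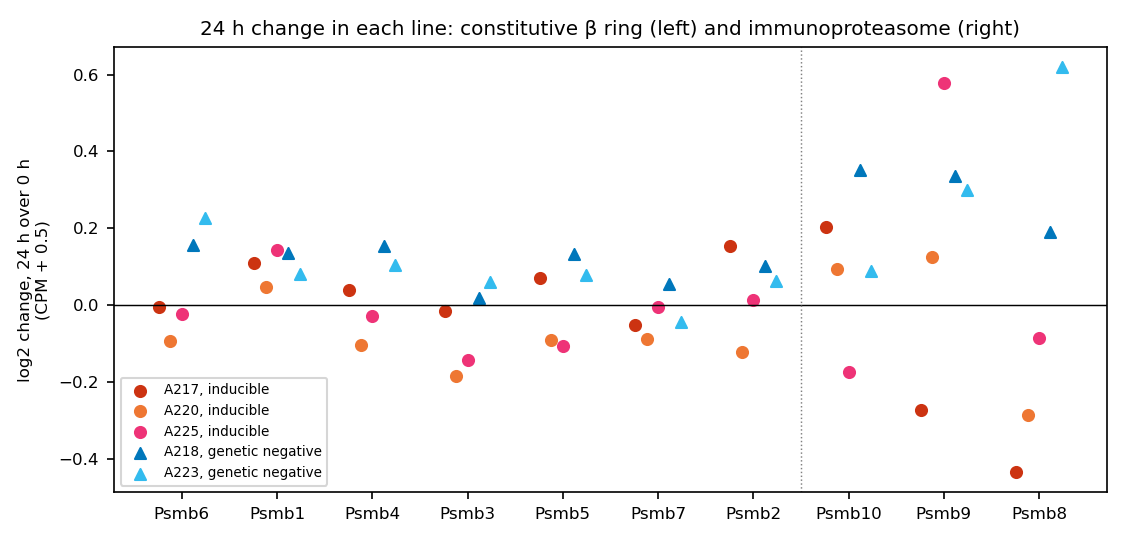
Log2 change of CPM + 0.5 at 24 h over 0 h in each line for the 7 constitutive β subunits and, right of the dotted line, the 3 immunoproteasome subunits, with circles for inducible and triangles for genetic negative lines. For Psmb6, Psmb3 and Psmb8 all 3 circles lie below 0 and both triangles above it, a split that in TPM holds for Psmb6 alone of these 3.

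Between the genotypes at a given time no member differed by an adjusted p. EdgeR called 0 of 39 at 0 h (0% of all features), 0 at 4 h (0.0121%) and 0 at 24 h (0.0121%), and DESeq2 and limma-voom called 0 at each time. At an unadjusted p under 0.05 there were 2, 0 and 2 members, and the share of all features at that threshold is not given here. The 2 at 24 h were Psmd4 and Psmb6, and those at 0 h Psmd11 and Psma6. In all 3 comparisons at least 32 of 38 members had a 95% interval within 0.3 log2 units of no difference.

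Transcripts of the 3 catalytic subunits of the immunoproteasome were low beside those of their constitutive counterparts, and the 3 did not pass any comparison. Protein and assembled complexes were not measured. Psmb8, the chymotrypsin-like subunit that replaces Psmb5, had a mean level of 1.65 TPM against 271 TPM for Psmb5. It made up 0.342 to 0.897% of the summed level of the pair over the 15 libraries, with a median of 0.624%. Psmb9, which replaces Psmb6, stood at 1.94 TPM against 418 TPM, and its share of that pair was 0.272 to 0.66%. Psmb10, which replaces the trypsin-like subunit Psmb7, was the exception at 26.2 TPM against 248 TPM, a share of 7.22 to 11.4%. The Psmb10 level includes a non-coding transcript, given under the other observations.

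Psmb8 (chromosome 17, 34197721 to 34201454) stood at 1.59, 1.42 and 1.12 CPM at 0 h, 1.38, 1.22 and 1.16 CPM at 4 h and 1.049, 1.072 and 1.032 CPM at 24 h in inducible lines A217, A220 and A225. In negative lines A218 and A223 it stood at 0.944 and 1.01 CPM at 0 h, 0.791 and 1.37 CPM at 4 h and 1.15 and 1.81 CPM at 24 h. In CPM each of the 3 inducible lines was lowest at 24 h and each of the 2 negative lines highest. In TPM, which also weighs the lengths of its transcripts, this order broke in A225, with 1.37, 1.15 and 1.55 TPM at 0, 4 and 24 h, and in A218, with 1.59, 1.02 and 1.51 TPM. Across all lines the 24 h change was 0.11 ± 0.19 (edgeR adjusted p = 0.751). These levels rest on 39 to 93 estimated counts in a library. Psmb8 overlaps Gm20496 on the opposite strand, and the share of Gm20496 reads in these counts was not tested.

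Psmb9 (chromosome 17, 34181987 to 34187764) stood at 1.57, 1.20 and 0.839 CPM at 0 h, 1.38, 0.934 and 0.938 CPM at 4 h and 1.217, 1.35 and 1.497 CPM at 24 h in inducible lines A217, A220 and A225. In negative lines it stood at 1.00 and 1.06 CPM at 0 h, 1.48 and 1.27 CPM at 4 h and 1.40 and 1.42 CPM at 24 h. The inducible libraries of 0 h and 24 h overlapped and the negative ones did not, with a 24 h change across lines of 0.31 ± 0.19 (edgeR adjusted p = 0.288). Psmb9 overlaps Tap1 on the opposite strand, and the share of Tap1 reads in its 46 to 83 estimated counts per library was not tested. Psmb10 (chromosome 8, 105935735 to 105938444) ranged from 8.92 to 14.4 CPM over the 15 libraries, with a 24 h change of 0.15 ± 0.12 (edgeR adjusted p = 0.443). Its counterpart Psmb7 ranged from 161 to 184 CPM and stood at -0.02 ± 0.04 (0.771), and Psmb5 from 122 to 149 CPM at 0.03 ± 0.05 (0.728).

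Around the proteasome, the lists were of genes known to build, activate or regulate it, and they were chosen with earlier results of these data known. Across all lines at 24 h, 2 of the 5 tested activators and inhibitors of the core were higher and 0 lower, where 18.7% of all features were called, a share that holds for each list of this comparison. These were Psme1 at 0.18 ± 0.04 (edgeR adjusted p = 0.0133) and Psme2 at 0.27 ± 0.05 (0.00203), the subunits of the 11S activator that interferon induces together with the immunoproteasome. Psme2 averaged 75.1 ± 3.78 CPM at 24 h against 64.4 ± 3.53 CPM at 0 h in inducible lines (SD, n = 3), and 76.9 ± 3.09 CPM against 61.6 ± 0.441 CPM in negative lines (SD, n = 2). Of the 5 core assembly chaperones 1 was higher, Pomp, the maturation factor of the β ring, at 0.13 ± 0.04 (0.0373). Of the other 4, Psmg3 passed only within inducible lines, lower at -0.39 ± 0.10 (0.0393), and its difference between genotypes was not called.

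The regulators of proteasome genes moved in both directions. Of 8 tested, 3 were higher and 3 lower across all lines at 24 h, against 18.7% of all features called, with a median log2 change of 0.05. Nfe2l1, which encodes NRF1, was higher at 0.25 ± 0.06 (edgeR adjusted p = 0.0194), as was Ngly1, the deglycosylase that activates NRF1, at 0.18 ± 0.05 (0.0295). Ddi2, the protease that cuts NRF1 free, was lower at -0.25 ± 0.04 (0.000843), averaging 96.3 ± 5.27 CPM at 24 h against 113 ± 2.50 CPM at 0 h in inducible lines and 91.2 ± 2.44 CPM against 109 ± 1.22 CPM in negative lines. Nfe2l2, which encodes the oxidative stress factor NRF2, was lower at -0.25 ± 0.04 (0.00156), and Nfya, a subunit of the CCAAT-binding factor NF-Y, at -0.27 ± 0.04 (0.00145).

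Of 11 tested further 19S subunits and bound ubiquitin factors 1 was lower, the shuttle receptor Ubqln4 at -0.24 ± 0.05 (edgeR adjusted p = 0.00444), and 0 were higher. Of the 5 genes of ubiquitin and the ubiquitin-activating enzyme 0 were called. At an unadjusted p under 0.05 there were 2, and the share of all features at that threshold is not given here. Of 9 genes of antigen processing and the interferon response, 2 were higher and 0 lower, with a median log2 change of 0.14. B2m, the light chain of class I molecules, was higher at 0.42 ± 0.06 (edgeR adjusted p = 0.000556), as was the peptide-loading factor Tapbp at 0.44 ± 0.07 (0.00163). Among the other 7 the interferon-induced factor Irf1 stood at 0.01 ± 0.08 (0.949) and the peptide transporter Tap1 at -0.12 ± 0.08 (0.351).

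Beyond doxycycline, the members shared differences between individual libraries. After subtracting each group's mean from log2 CPM, 1 axis held 46.7% of the remaining variance of 36 members (those tested, without the low Psmb8, Psmb9 and Psmb11). The libraries of A220 scored 0.37, 0.27 and 0.43 on it at 0, 4 and 24 h, those of A225 -0.25, -0.22 and -0.54, and those of A217 between -0.12 and 0.11. The negative lines did not keep their places: A218 scored -0.08, 0.28 and -0.09, and A223 the mirror image, since each negative group holds 2 libraries. Psmb10 (loading 0.46) and Psmb5 (0.25) stood at one end and Psmc6 (-0.42) and Psmd14 (-0.27) at the other. Within classes the median correlation of these library differences was 0.77 over the 21 pairs of α subunits, 0.56 over the 21 pairs of β subunits, 0.46 over 15 pairs of ATPases and 0.07 over 28 pairs of lid subunits. These correlations are across the same 15 libraries and share their depth and lines.

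The order of the members along this axis followed the GC content of their transcripts. Across the 36 genes, the loading and GC content had a Pearson correlation of 0.82 and a Spearman correlation of 0.82, given as a description of genes measured in the same libraries. The GC content was 37.0% for Psmc6 and 43.1% for Psmd14, against 57.1% for Psmb10 and 56.6% for Psmb5, and the median was 50.3% for the 39 tested members and 49.9% for all features with a value. The log2 difference between inducible and negative lines at 24 h also ran with GC content, at a Pearson correlation of -0.86 across the 36 members and -0.12 across 16435 features. For the changes with doxycycline the correlation over the members was -0.72 at 4 h and -0.19 at 24 h across all lines, -0.55 and -0.35 in inducible lines and -0.53 and 0.02 in negative lines. It was -0.44 for the difference of the 24 h responses and -0.09 for that at 4 h. What GC content contributed to any one difference was not tested.

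**Figure D5:**
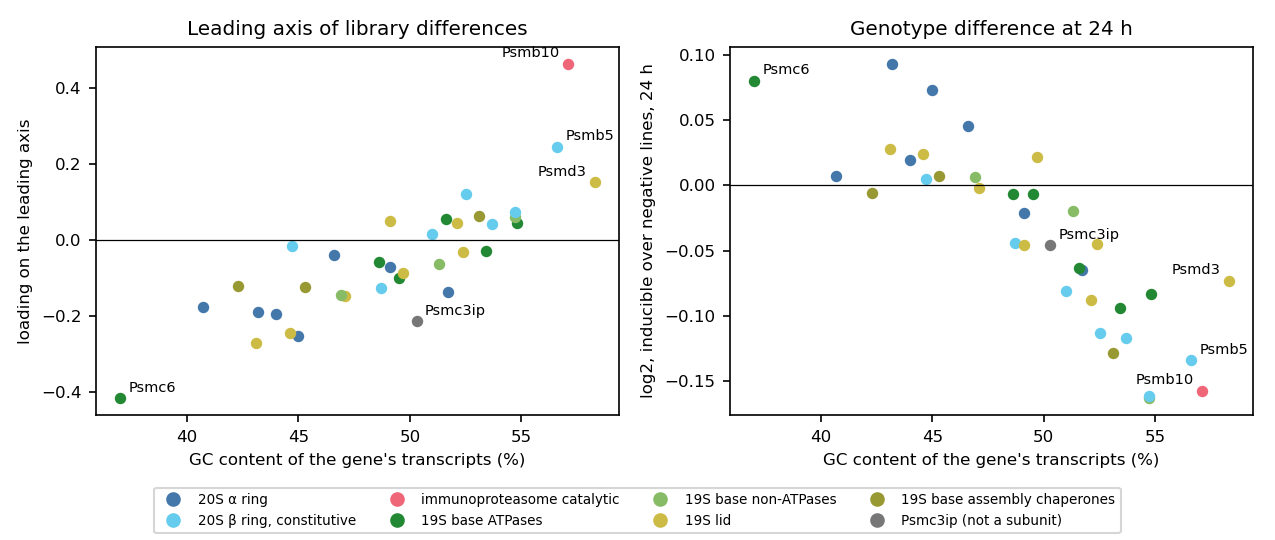
GC content in percent of the transcripts of 36 genes against their loading on the leading axis of library differences (left) and against the log2 difference of inducible over negative lines at 24 h (right). In the left panel Psmc6 (37.0% GC) has the lowest loading and Psmb10 (57.1% GC) the highest. Psmb10 and Psmb5 lie below 0 in the right one, at -0.16 and -0.13.

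With an offset per library for a smooth curve of expression on GC content, the axis held 39.9% of the variance and its correlation with GC content was 0.17. Median correlations within classes were then 0.55 for α subunits, 0.6 for β subunits, 0.5 for ATPases and 0.2 for lid subunits. Without the offset they were 0.77, 0.56, 0.46 and 0.07, as given above. The same 4 members passed at 24 h across all lines, among them Psmd10 at 0.29 ± 0.04 (edgeR adjusted p = 0.000857) and Psmb1 at 0.10 ± 0.03 (0.0421). With the replicate block and the GC offset together 8 passed, the additions being Psmb6, Psmc6, Psmd13 and Psmd14 at log2 changes of 0.06 to 0.11. The share of all features called in that fit is not given here. With the block alone it was 36.1%, so the additions are not read as particular to the members. The difference of the 24 h responses of Psmb6 was -0.20 ± 0.05 in that fit (unadjusted p = 0.000909, edgeR adjusted p = 0.434).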

How the data were processed

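RNA of 15 organoid cultures was sequenced after ribosomal RNA depletion, with paired-end TruSeq libraries, per the labels' protocols. The authors quantified transcripts with kallisto 0.43.1 on GRCm38, per the submitters' processing notes, which also name DESeq2 1.18.1. The deposited files hold estimated counts per transcript, not normalised, and TPM values, per the file headers. Whether counting used strand, and the annotation release, are not given in the sources used here.

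Estimated counts were summed per gene with GENCODE M21 and rounded to whole numbers. The 1295 transcripts without a match, 0.556 to 0.593% of a library's counts, were left out. The deposited TPM values were summed per gene for levels. Comparisons were tested in R 4.3.3 with the quasi-likelihood functions of edgeR 4.0.16, using TMM scaling, the default expression filter and 6 group means fitted to all 15 libraries (9 residual degrees of freedom, biological coefficient of variation 0.157), Benjamini-Hochberg adjusted over 16462 features with a threshold of 0.05. There were 11: the responses after 4 h and after 24 h (each relative to 0 h) of inducible lines, of negative lines and averaged over genotypes, how these responses differed, and the genotypes set against each other at every time. The 95% intervals are from the same fit. The test was tried on simulated counts with independent libraries, no differences between lines and larger folds than those of the called members. That trial does not cover the sharing of lines between libraries or changes as small as those reported here. The members, gene lists and motifs were chosen with earlier results of these data known. Values by library were given for called members (at most 4 in a class), the immunoproteasome subunits and their counterparts, and Psmc3ip. Elsewhere the member with the largest 24 h change and the most abundant one of a class were named, and Psmb6 in full after its values were seen.

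A gene of the antigen processing list is not reported here. Lines pair the libraries, since the same line was sampled at every time. Deviations from the group mean correlated within a line, at 0.578 to 0.677 over 9 inducible pairs and 0.423 to 0.494 over 6 negative pairs, the last being mirror images since each group has 2 lines. Libraries of a group differed by more than sampling noise. Alternatives were the line as a replicate block (fixed; 6 residual degrees of freedom), limma-voom 3.58.1 with the line as a random block, DESeq2 1.42.0, median-of-ratios scaling, 2 other filters, an effective length offset, only the compared groups, leaving out each library, and a GC offset added after seeing the data (a smooth curve with 5 degrees of freedom per library, on GC content averaged over a gene's transcripts by their counts). Changes per line used log2 of CPM + 0.5, and their directions were also counted in TPM, a choice made after seeing the data.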

Additional observations from a re-analysis of the deposited data

Results flagged for a closer look

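At 24 h, 7 members had CPM values that lay on opposite sides of their 0 h level in all inducible and in both negative lines, though in Psmc3 (A217 and A223) and Psmb6 (A217) by 0.005 log2 units or less. Of all features 2.16% were lower in the inducible and higher in the negative lines, as 6 of these were, and 1.9% the reverse, as was Psma6. In TPM only Psmb6 and Psma6 of the 7 kept the split. The inducible response minus the negative response was -0.23 ± 0.08 on the log2 scale for Psmb6 (SE), -0.99 ± 0.39 for Psmb8, -0.18 ± 0.10 for Psmd9, -0.15 ± 0.09 for Psmb3, -0.13 ± 0.08 for Psma7, -0.10 ± 0.08 for Psmc3 and 0.15 ± 0.06 for Psma6, all from edgeR. The edgeR adjusted p was 1 for each, and with the replicate block it ranged from 0.469 to 0.673.

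At 4 h such a split in CPM was seen in Psmb6 at -0.10 ± 0.08, Psmc3 at -0.06 ± 0.08 and Psmd4 at -0.13 ± 0.08, each with an edgeR adjusted p of 1 and of 0.991 with the replicate block. By direction alone, 3 of 39 members were lower in all inducible and higher in both negative lines at 4 h, against 2.63% of all features. In TPM it held at 4 h for Psmb6 and Psmd4 and not for Psmc3.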

How the results depend on the processing

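With the replicate block the number of members called was 1 for inducible lines at 4 h, 4 for them at 24 h and 4 for negative lines at 24 h. With the GC offset, chosen after seeing the data, added to the block it was 1, 4 and 7, and 8 across all lines at 24 h. In inducible lines at 24 h limma-voom called 4, DESeq2 3, the GC offset alone 2 and the fit of only the groups compared 0. In negative lines at 24 h limma-voom called 4 and the fit of only the groups compared 0. The shares of all features with the block alone stand with the results. Those for the GC offset, limma-voom, DESeq2 and the fit of only the groups compared are not given here. The median change of members moved to -0.016 with the effective length offset at 4 h in negative lines and to -0.011 for the difference of 4 h responses. The cause of these shifts was not tested. The block changed no other call than those given with the results.

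Leaving out 1 library gave 0 to 3 called members in inducible lines at 24 h, 0 in negative lines and 2 to 4 across lines. Medians of the members' log2 change then ranged from -0.026 to 0.02 in negative lines at 4 h, 0.008 to 0.073 in negative lines at 24 h, -0.038 to -0.004 for the difference of responses at 4 h, -0.094 to -0.013 for that at 24 h, and, between genotypes, -0.014 to 0.022 at 0 h, -0.035 to 0.005 at 4 h and -0.053 to 0.004 at 24 h. Where a group was left with 1 library, that library was assumed to vary like the other groups. Counts of members stayed within 1.5 times in 91 of 104 other settings. With CPM in place of TPM, 2 of 14 class sums moved by more than the spread between lines: at 24 h the α ring stood at 0.03 and the other base subunits at 0.02, against -0.02 and -0.03 in TPM. Psmb8, Psmb9 and Psmb11 had under 100 counts in a library, which limits what could be seen of them.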

Other observations

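Several members drew many of their counts from transcripts that encode no full subunit. In Psmd13, a lid subunit, a transcript marked for nonsense-mediated decay held 38.9% of the estimated counts, and in Psmc3ip a transcript with a retained intron held 42.5%. The share of the Psmc3ip transcript ranged from 34.4 to 47.6% at 24 h, against 33.6 to 48.8% at 0 h, so these ranges overlapped. In Psmb10 a non-coding transcript held 17.5%. The ubiquitin receptor Psmd4 was split between 2 coding transcripts with 57.8 and 38.0% of its counts, and the lid subunit Psmd11 between 2 with 53.7 and 32.4%.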
